A study of Mus musculus with 12 samples.

Results

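The genes described here form the receptor end of the main hormonal and autonomic inputs to the heart muscle cell: the adrenergic receptors Adrb1, Adra1a and Adra1b, the muscarinic receptor Chrm2, the angiotensin receptor Agtr1a, the endothelin receptors Ednra and Ednrb, the angiotensin-converting enzyme Ace and Rgs2, an inhibitor of signalling through Gq. These 9 genes were taken by name from a table of read counts for 49568 genes, and all 9 were among the 14712 genes with enough reads to be tested. They were chosen by name with their measured levels, TAC changes and genotype differences in these same libraries known, so their values are given as a description and support nothing by themselves. Beside them stand 137 other genes of the same pathways in 13 lists, of which 118 could be tested.

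RNA came from cardiomyocytes of male mice in 4 groups of 3 libraries. TAC (transverse aortic constriction) is an operation that narrows the aorta so that the heart pumps against a higher pressure. A sham operation leaves out the narrowing. The control groups carried the transgene labelled alphaMHC-MerCreMre/+, a Cre recombinase that is driven by the cardiomyocyte promoter of alpha myosin heavy chain and becomes active with tamoxifen. The dKO groups carried the same transgene (MHC-MerCreMre/+) with Mrtf-a-/- and Mrtf-bflox/flox, so factor A was missing from every cell of the animal and factor B only from cells in which Cre acted. The myocardin-related transcription factors A and B are partners of serum response factor that enter the nucleus when actin filaments form. All mice, controls included, received 3 daily injections of tamoxifen at 30 ug/g from 8 weeks of age, and cells were taken 7 days after surgery, at 11 weeks. The sample labels put the surgery at 10 weeks of age and the series text at 8 weeks. Nothing in the labels says whether a library is 1 animal or a pool, so p-values measure the spread between libraries, part of which may be technical.

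In heart muscle, beta-adrenergic receptors act through the G protein Gs, which raises cyclic AMP and activates protein kinase A, and so make the beat stronger and faster. The alpha-1 adrenergic, angiotensin and endothelin receptors act mainly through Gq and phospholipase C, a route known for driving growth of cardiomyocytes under load. The muscarinic receptor acts through Gi and a potassium channel of the subunits Kcnj3 and Kcnj5, and slows the heart.

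Total counts per library lay between 20082000 and 29675212, and values below are CPM, in which each count is divided by the size of its library, after TMM adjustment of that size. In single libraries 3 counts were worth 0.0935 to 0.184 CPM, a floor for counting error alone. The targeted genes were read first. Mkl1, which encodes factor A, lay between 7.59 and 16.0 CPM in the 6 control libraries and between 2.15 and 3.20 in the 6 dKO libraries, and Mkl2, which encodes factor B, between 30.1 and 44.1 and between 15.2 and 28.1. Mkl1 fell in dKO by 1.75 on the log2 scale after sham and by 2.42 after TAC (adjusted p = 0.0409 and 0.00182), while the values for Mkl2, -0.88 and -0.54, did not pass (0.507 and 0.518), although its libraries did not overlap between genotypes. No source used here says which exons were removed. Libraries dKO sham 1 and dKO TAC 2 stood apart from the others of their groups, with 16.5% and 15.3% of counts from mitochondrial genes against 23.2% to 32.6% elsewhere, and with fewer reads on long transcripts (Spearman rho of exon length with the deviation from their group, -0.62 and -0.59 across 9924 genes). Their part in the results was not tested beyond leaving out each or both and removing the trend with exon length. The TAC and genotype differences of each member, and each called value that uses dKO libraries, are given below with and without this pair. Markers of the labelled cell type were abundant, with 8 cardiomyocyte genes summing to 32771 to 80984 CPM. RNA of other cells was present too, and 12 fibroblast markers summed to 1006 to 1806 CPM in sham controls and 1433.5 to 8362 in TAC controls. In dKO they summed to 1118 to 1557 after sham and 2665 to 3057 after TAC. The collagen genes Col1a1, Col1a2 and Col3a1 made up most of the sum in every TAC library.

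The stretches upstream of Ace, Chrm2 and Adrb1 are shown because Ace had the largest log2 change with TAC among the members, and Chrm2 and Adrb1 the largest genotype differences after TAC. MRTF factors act through serum response factor, which binds the CArG box, so that motif was among those searched. The promoter table held 7 of the 9 members. Each is the 250 bases before the RefSeq start site on GRCm38.p6, 5′ to 3′ on the plus strand, from chr11:105967698-105967947 for Ace, chr6:36387834-36388083 for Chrm2 and chr19:56721867-56722116 for Adrb1. Capitals mark each match, on either strand, to the GC box with the letters GGGCGG. They also mark the CCAAT box, spelled by its name, and the TATA box, which was searched as TATAAA.
Ace: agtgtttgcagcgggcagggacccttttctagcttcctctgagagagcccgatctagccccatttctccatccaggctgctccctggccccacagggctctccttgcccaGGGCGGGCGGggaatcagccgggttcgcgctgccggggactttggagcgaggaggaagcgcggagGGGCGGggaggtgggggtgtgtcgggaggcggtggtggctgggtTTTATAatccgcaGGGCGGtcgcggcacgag
Chrm2: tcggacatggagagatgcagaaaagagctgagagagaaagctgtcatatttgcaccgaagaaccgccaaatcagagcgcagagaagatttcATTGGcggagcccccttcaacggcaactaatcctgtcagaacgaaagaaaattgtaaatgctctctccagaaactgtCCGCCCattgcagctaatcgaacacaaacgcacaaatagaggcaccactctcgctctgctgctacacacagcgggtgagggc
Adrb1: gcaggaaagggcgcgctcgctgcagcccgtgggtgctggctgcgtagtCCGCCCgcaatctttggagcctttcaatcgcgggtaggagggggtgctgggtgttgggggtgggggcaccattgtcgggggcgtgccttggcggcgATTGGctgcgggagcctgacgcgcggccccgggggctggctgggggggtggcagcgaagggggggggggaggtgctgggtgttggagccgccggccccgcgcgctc
The Ace stretch held 4 GC boxes, of which the first 2 overlap, and a TATA box whose first base lay at -31 from the start site. The Chrm2 and Adrb1 stretches each held 1 GC box and 1 CCAAT box and no TATA box. Over windows of 300 bases, which add 50 bases after the start, GC boxes were in 5 and CCAAT boxes in 6 of the 9 promoters of those 7 genes, against 35.7% and 37.4% of all 32851 promoters in the table. A CArG box was in 0 of the 9 and in 1.63% of all promoters. The cAMP response element, searched as TGACGTCA, was in 0 of the 9 and in 1.79% of all promoters. The MCAT element, with the letters CATTCC, was in 0 of the 9 and in 14.7% of all promoters, and the TATA box was in 1 of the 9 and in 13.6%. The absence of these letters says only that they are not in these windows.

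The order of the members was read per exon length, as CPM per kilobase of exon. In control sham Chrm2 stood first at 15.1 ± 3.74 (SD, n = 3), followed by Agtr1a at 14.0 ± 1.92, Ace at 10.6 ± 2.75 and Rgs2 at 9.56 ± 1.46, and neighbours among these 4 overlapped between libraries. Adra1b followed at 7.76 ± 0.416 and Ednra at 6.55 ± 0.103, each apart from its neighbours. The lowest were Ednrb at 3.80 ± 1.69, Adra1a at 2.67 ± 0.353 and Adrb1 at 2.58 ± 0.175 CPM per kilobase, with overlapping libraries. Adrb1, the main beta receptor of cardiomyocytes, was thus among the lowest of the 9 transcripts.

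After TAC the order changed at the top. Ace stood first in control TAC, at 23.2 ± 12.5 CPM per kilobase, and in dKO TAC, at 26.5 ± 4.71, with all its libraries above those of the next gene, Chrm2. In dKO sham Rgs2 led at 12.1 ± 3.47, and the first 6 genes overlapped pairwise down to Adra1b at 6.68 ± 1.29. Adra1a was last in the other 3 groups, at 1.55 ± 0.601 CPM per kilobase for control TAC, 1.75 ± 0.581 for dKO sham and 1.09 ± 0.496 for dKO TAC.

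**Figure D1:**
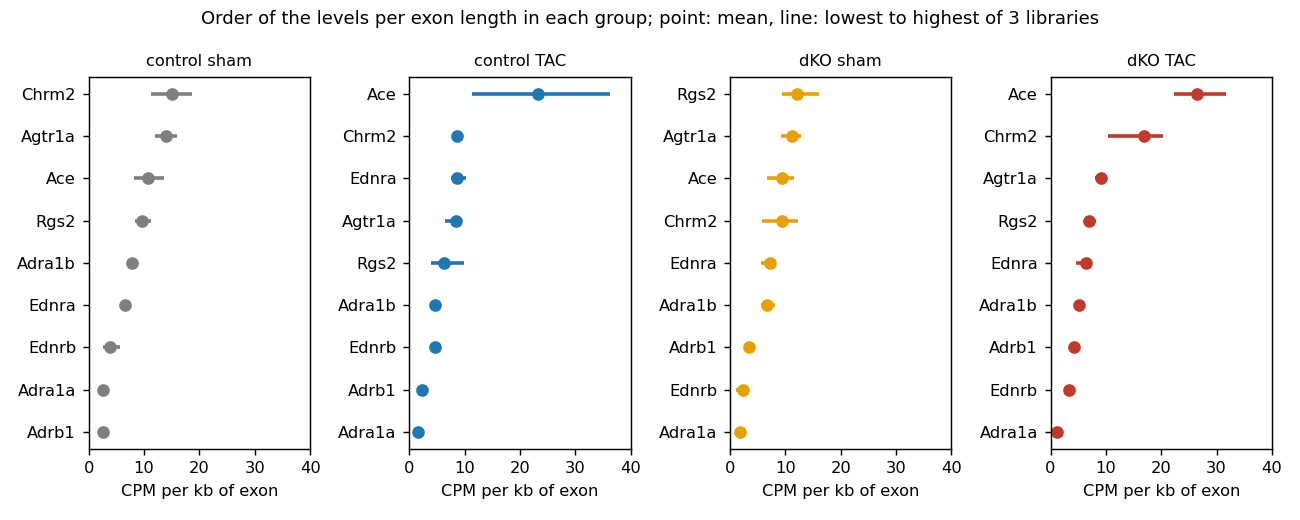
Levels of the 9 genes per exon length (x axis, CPM per kilobase of exon) in each of the 4 groups, in order of their means; points are means of 3 libraries and lines run from the lowest to the highest library. Ace led both TAC groups, at 23.2 and 26.5, and Chrm2 and Rgs2 led the sham groups, at 15.1 and 12.1.

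Of the 9 members, 1 passed the threshold of adjusted p under 0.05 in any comparison, namely Ace, which was higher after TAC in dKO. In the edgeR fit 0 members were called for TAC in control, where 1.9% of all tested genes were called higher and 0.347% lower. There 5 members had an unadjusted p under 0.05, as did 2480 of all 14712 genes. DESeq2 called 3 members (Ace higher, Adra1b and Agtr1a lower), beside 755 genes higher and 250 lower. For TAC in dKO 1 member was called higher and 0 lower, beside 4.2% and 3.19% of all genes. For dKO against control after sham 0 members were called by edgeR and by DESeq2. Of all genes edgeR called 0.0408% higher and 0.0272% lower, and DESeq2 called 32 genes higher and 30 lower. In edgeR 1 member and 1361 of all genes had an unadjusted p under 0.05. For dKO against control after TAC 0 were called by either tool, and the shares of all genes in edgeR were 0.306% and 0.122%. DESeq2 called 202 genes higher and 118 lower. In edgeR 2 members and 1305 of all genes had an unadjusted p under 0.05. The difference between the TAC effects of both genotypes called 0 members by either tool. Of all genes edgeR called 0% in each direction, and DESeq2 called 8 genes higher and 3 lower. In edgeR 1 member and 697 of all genes had an unadjusted p under 0.05. Since these contrasts were known when the members were chosen, nothing is read from their counts against those of all genes.

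**Figure D2:**
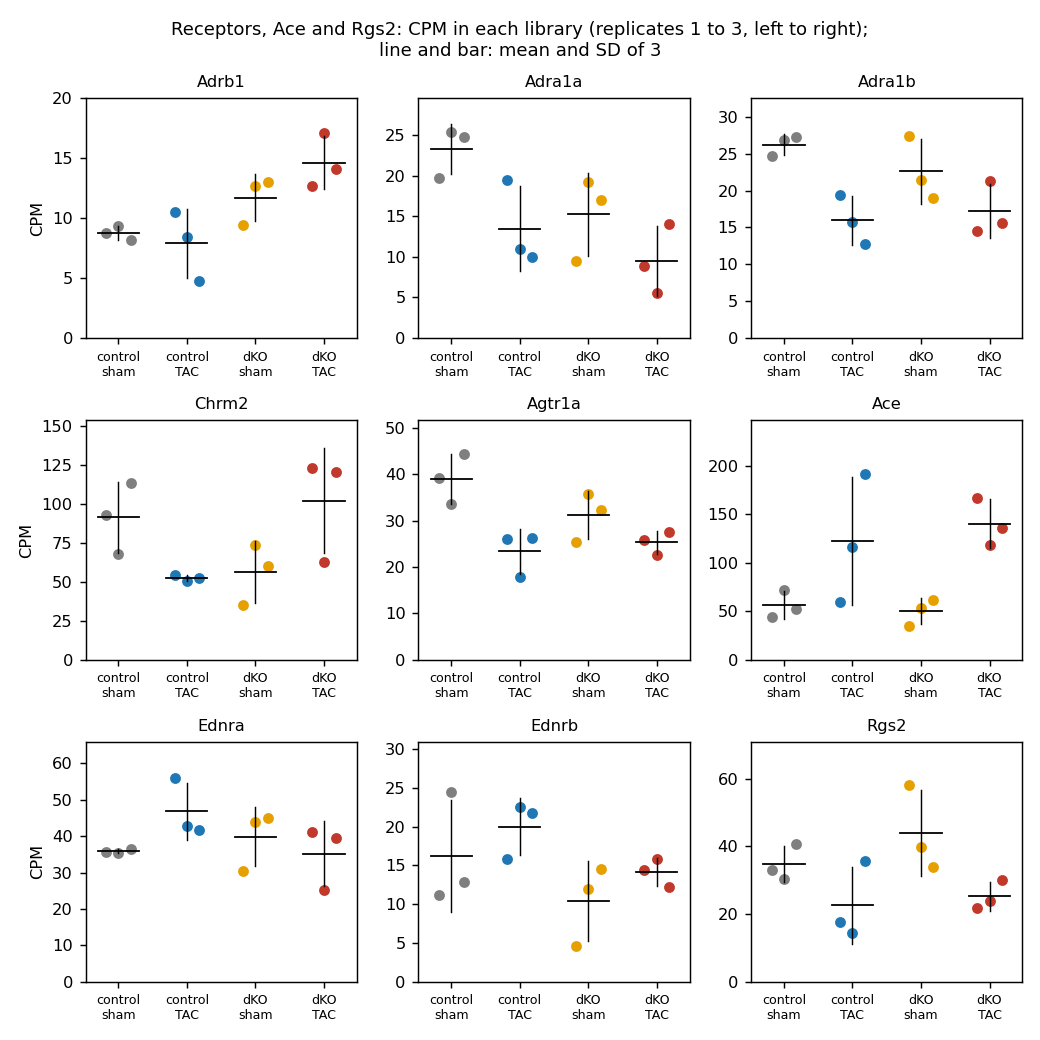
CPM of each of the 9 genes (y axis, from 0) in every library of the 4 groups (x axis); points are libraries, lines and bars the mean and SD of 3. Ace was high in 2 of 3 control TAC libraries and in all 3 dKO TAC libraries, and Chrm2 lay between 50.6 and 54.7 in control TAC against 63.2 to 123 in dKO TAC.

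Adrb1 encodes the beta-1 adrenergic receptor, the target of noradrenaline that raises rate and force (chr19:56722199-56733113 on GRCm38, plus strand). It stood at 8.73, 9.33 and 8.15 CPM in sham-operated controls, against 10.5, 8.40 and 4.80 in controls with TAC. In dKO the sham values were 9.46, 12.7 and 13.0 and the TAC values 12.7, 17.1 and 14.1. All dKO libraries lay above all control libraries of the same surgery. The log2 difference of dKO from control was 0.42 ± 0.26 (SE) after sham and 0.89 ± 0.26 after TAC, and 0.56 and 0.76 without dKO sham 1 and dKO TAC 2. Neither passed the threshold (adjusted p = 0.516 and 0.219). TAC gave -0.15 ± 0.26 in control and 0.32 ± 0.26 in dKO, the latter 0.06 without that pair, and the groups overlapped in both genotypes.

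Adra1a and Adra1b encode alpha-1 adrenergic receptors of cardiomyocytes. Adra1a measured 19.7, 25.3 and 24.8 CPM in the control libraries after sham surgery and 19.5, 11.0 and 9.95 after TAC. The dKO libraries measured 9.52, 19.2 and 17.0 after sham surgery and 8.93, 5.49 and 14.1 after TAC. Its control sham libraries were the 3 highest of all 12. With TAC the log2 change was -0.79 ± 0.36 in control and -0.69 ± 0.36 in dKO (-0.66 without the pair that stood apart), with adjusted p of 0.292 and 0.239. The dKO-minus-control difference was -0.61 ± 0.36 after sham and -0.51 ± 0.36 after TAC, and -0.36 and -0.23 without the pair. Both of those libraries were the lowest of their group for Adra1a, by 0.92 and 1.03 on the log2 scale, and its exons span 8728 nt, the longest of the 9.

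Adra1b stood at 24.6, 26.8 and 27.3 CPM in sham-operated controls, against 19.4, 15.7 and 12.8 in controls with TAC. Values in dKO after sham were 27.4, 21.4 and 18.9 and the TAC values 14.5, 21.4 and 15.6. Control TAC libraries lay below all control sham libraries, and the dKO groups overlapped. With TAC the log2 change was -0.72 ± 0.21 in control (adjusted p = 0.104) and -0.39 ± 0.21 in dKO (0.243, and a change of -0.42 without the pair). Without dKO sham 1 alone, which is in neither control group, the change in control was again -0.72 (adjusted p = 0.0452). In that fit 723 of 15037 genes were called for TAC in control, against 331 of 14712 in the main fit. Of the 19 alternatives, 5 called the change of Adra1b in control, with an adjusted p of up to 0.339 in the others. The genotypes differed by -0.22 ± 0.21 after sham and 0.11 ± 0.21 after TAC, and by -0.38 and -0.08 without the pair, which turned the sign after TAC.

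Per exon length Adra1a was below Adra1b in all 12 libraries. The log2 ratio of Adra1a to Adra1b was -1.55 ± 0.125 (SD, n = 3) in sham and -1.66 ± 0.271 in TAC controls. In dKO it was -1.98 ± 0.789 after sham and -2.31 ± 0.929 after TAC. The wide spread of the dKO groups came with the pair that stood apart, at -2.89 for dKO sham 1 and -3.33 for dKO TAC 2. The other 4 dKO libraries lay between -2.07 and -1.52.

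Chrm2 encodes the M2 muscarinic receptor, through which the vagus nerve slows the heart (chr6:36388084-36528414, plus strand). It measured 93.0, 68.2 and 113 CPM in the control libraries after sham surgery and 54.7, 50.6 and 52.4 after TAC. Those of dKO measured 35.0, 74.0 and 60.4 after sham surgery and 123, 63.2 and 121 after TAC. Every control TAC library lay below every control sham library, while in dKO 2 of 3 TAC libraries lay above all sham libraries and the third, dKO TAC 2, lay within them. With TAC the log2 change was -0.80 ± 0.30 in control and 0.86 ± 0.30 in dKO, with adjusted p of 0.196 and 0.0987. The dKO-minus-control difference was -0.70 ± 0.30 after sham and 0.96 ± 0.31 after TAC, with adjusted p of 0.507 and 0.281.

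Chrm2 had the largest difference between the TAC effects of the genotypes among the members, 1.66 ± 0.43 on the log2 scale. By p it ranked 23 of 14712 genes, yet the adjusted p was 0.841. Without dKO sham 1 and dKO TAC 2 this difference was again 1.66 (adjusted p = 0.093). Without that pair TAC gave -0.80 in control and 0.86 in dKO (adjusted p = 0.0339 and 0.031), the same changes as in the main fit. There dKO differed from control by -0.45 after sham and by 1.21 after TAC (0.754 and 0.0107). That fit had 1 library fewer in each dKO group. It called 771 genes for TAC in control, 1580 for TAC in dKO and 508 for dKO after TAC. The main fit called 331, 1087 and 63. Without dKO TAC 2 alone the change with TAC in dKO was 1.12 (adjusted p = 0.0424), and without dKO sham 1 alone it was 0.60 (0.225). An RNA annotated on the opposite strand, 9330158H04Rik, overlaps Chrm2 and averaged 18.5 CPM. No source used here says whether the counting used strand, so reads of this pair may not be separated.

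The other tested muscarinic receptor, Chrm3, stayed at 0.751 CPM or less in every library, and Chrm1, Chrm4 and Chrm5 had at most 3 counts in any library and were not tested.

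Ace encodes the enzyme that converts angiotensin I to angiotensin II and degrades bradykinin (chr11:105967945-105989964, plus strand). It stood at 43.6, 72.1 and 52.8 CPM in sham-operated controls, against 59.9, 117 and 191 in controls with TAC. Sham-operated dKO libraries gave 35.0, 53.7 and 61.4, and those with TAC 167, 118 and 136. All dKO TAC libraries lay above all dKO sham libraries, and control TAC 1 lay within the control sham range. The log2 change with TAC was 1.13 ± 0.36 in control (adjusted p = 0.135) and 1.49 ± 0.37 in dKO (adjusted p = 0.0307, a fitted fold of 2.80). Without dKO sham 1 and dKO TAC 2 the change in dKO was 1.40 and no longer passed (adjusted p = 0.0698). Nor did it pass without dKO sham 1, dKO sham 2, dKO TAC 1 or dKO TAC 3 alone, with an adjusted p of up to 0.13. Without control TAC 1 the change in control was 1.45 and passed (adjusted p = 0.0158). In that fit 1130 of 15013 genes were called for TAC in control, against 331 of 14712 in the main fit. The change of Ace in control passed in 3 of the 19 alternatives, with an adjusted p of up to 0.494 in the others. The genotypes differed by -0.17 ± 0.36 after sham and 0.19 ± 0.36 after TAC, or 0.04 and 0.31 without the pair.

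Fibroblast and macrophage marker sums were in the same order as Ace within control TAC. In control TAC the fibroblast markers summed to 1433.5, 3460 and 8362 CPM in libraries 1 to 3, where Ace measured 59.9, 117 and 191. In dKO TAC they summed to 3057, 2691 and 2665 beside Ace values of 167, 118 and 136. All 12 fibroblast markers were tested, and 4 rose with TAC in control and 4 in dKO, where 2 fell. Macrophage markers summed to 238, 480 and 754 CPM in control TAC and to 405, 513 and 281 in dKO TAC, where their order differed from that of Ace. In sham controls they summed to 169, 362 and 170, highest where Ace was highest. All 12 macrophage markers were tested and 0 were called in either TAC comparison, with a median log2 change of 1.15 in control and 0.37 in dKO, against 0.89 and 0.63 for the fibroblast markers. The 12 endothelial markers, of which 0 were called in either TAC comparison, summed to 1309, 1879 and 1306 CPM in sham controls, highest where Ace was highest. In TAC controls they summed to 1390, 1858 and 1685. For dKO the endothelial sums were 993 to 1908 CPM after sham, in the order of Ace, and 948 to 1417 after TAC. In both TAC groups their order differed from that of Ace. The 10 pericyte and smooth muscle markers lay between 297 and 754 CPM over the 12 libraries. Fewer cells of a type and less RNA per cell cannot be told apart in these bulk samples, and the part of other cells in the Ace difference was not tested.

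**Figure D3:**
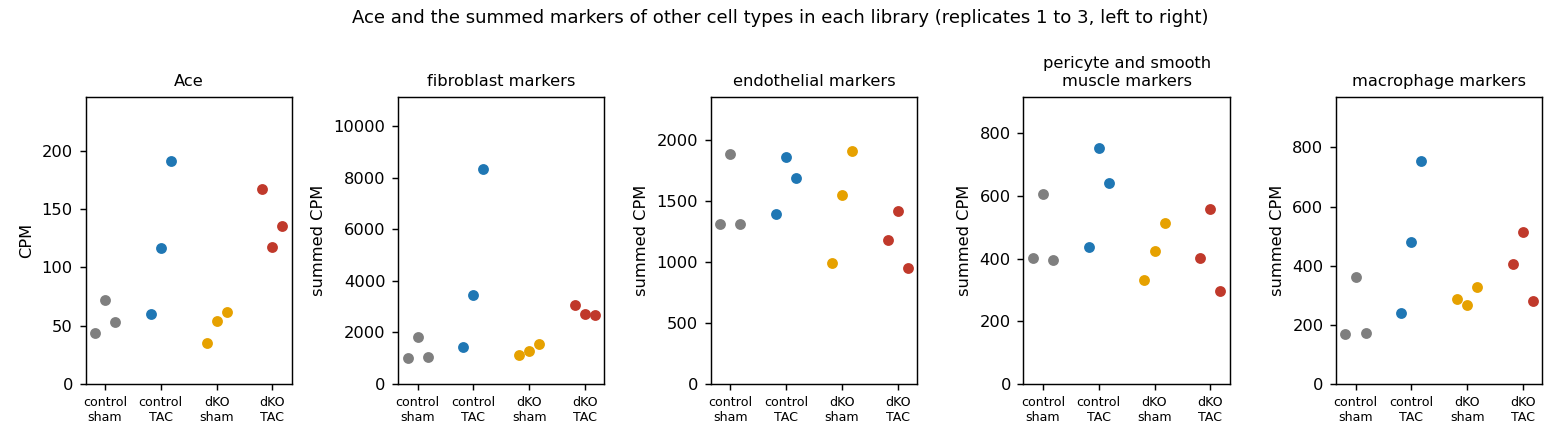
Ace (CPM) and the summed CPM of marker genes of fibroblasts, endothelial cells, pericytes with smooth muscle, and macrophages (y axes, from 0) in every library of the 4 groups (x axes). The control TAC libraries run from 59.9 to 191 CPM for Ace and from 1433.5 to 8362 for the fibroblast markers in the same order, as do the macrophage markers from 238 to 754.

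Agtr1a encodes the type 1 angiotensin II receptor (chr13:30336441-30382867, plus strand). It measured 39.2, 33.6 and 44.3 CPM in the control libraries after sham surgery and 26.1, 17.8 and 26.3 after TAC. Corresponding dKO libraries measured 25.5, 35.7 and 32.2 after sham surgery and 25.9, 22.6 and 27.6 after TAC. The control TAC libraries lay below all control sham libraries, and dKO groups overlapped. TAC gave a log2 change of -0.74 ± 0.20 in control (adjusted p = 0.0791) and -0.30 ± 0.20 in dKO (0.343, and a change of -0.35 without the pair). The change in control was -0.74 without dKO sham 1 as well, with an adjusted p of 0.0342. It passed in 3 of the 19 alternatives, with an adjusted p of up to 0.329 in the others. The genotypes differed by -0.32 ± 0.20 after sham and 0.12 ± 0.20 after TAC, or -0.20 and 0.19 without the pair. The other angiotensin receptors, Agtr1b and Agtr2, had at most 1 count in any library.

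The remaining genes of the renin-angiotensin list did not pass in any comparison. Of 14 listed, 8 were tested, and Ren1, Cma1, Ctsg and Bdkrb1 were too low beside the 2 receptors. Ren1, which encodes renin, had 0 counts in every library. Agt, the angiotensin precursor, lay between 1.37 and 10.8 CPM. The median log2 change of the 8 was -0.12 for TAC in control and -0.03 for TAC in dKO, against 0.00 and -0.01 over all tested genes.

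Ednra encodes the endothelin A receptor, which cardiomyocytes and smooth muscle carry, and Ednrb the endothelin B receptor, which is also found on endothelium. Ednra stood at 35.7, 35.4 and 36.5 CPM in sham-operated controls, against 55.9, 42.9 and 41.5 in controls with TAC. Among dKO libraries the sham values were 30.5, 44.0 and 45.0 and the TAC values 41.0, 25.1 and 39.5. All control TAC libraries lay above the narrow control sham range and above all dKO TAC libraries. The log2 change with TAC was 0.38 ± 0.22 in control and -0.18 ± 0.22 in dKO (adjusted p = 0.416 and 0.616), and the dKO-minus-control difference was 0.15 ± 0.22 after sham and -0.41 ± 0.22 after TAC (0.75 and 0.638). Without the pair the 3 values that use dKO libraries were -0.14, 0.31 and -0.21. The difference between TAC effects was -0.56 ± 0.31 (adjusted p = 0.841). The RNA 4933431K23Rik, on the opposite strand of Ednra, averaged 2.97 CPM.

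Ednrb measured 11.2, 24.5 and 12.9 CPM in the control libraries after sham surgery and 15.8, 22.5 and 21.7 after TAC. The dKO libraries measured 4.67, 12.01 and 14.6 after sham surgery and 14.3, 15.8 and 12.2 after TAC. All 4 comparisons had overlapping groups. The log2 change with TAC was 0.30 ± 0.37 in control and 0.43 ± 0.37 in dKO. The genotypes differed by -0.63 ± 0.38 after sham and -0.50 ± 0.37 after TAC, with adjusted p from 0.476 to 0.779. Without the pair that stood apart the last 3 values were 0.00, -0.28 and -0.59. Library dKO sham 1 was the lowest of its group for Ednrb, by the widest such gap of the 9 genes. The endothelial markers summed to 993, 1550 and 1908 CPM in dKO sham, lowest in the same library. In control sham they summed to 1309, 1879 and 1306, highest where Ednrb was highest. The part of other cells in the values of Ednrb was not tested.

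Rgs2 encodes a protein that speeds GTP hydrolysis by Gq and so shortens signalling by alpha-1, angiotensin and endothelin receptors. It stood at 33.1, 30.4 and 40.6 CPM in sham-operated controls, against 17.6, 14.3 and 35.6 in controls with TAC. In dKO the sham values were 58.1, 39.9 and 33.9 and the TAC values 21.9, 23.7 and 30.0. The dKO TAC libraries lay below all dKO sham libraries, and in control the third TAC library lay within the sham range. The log2 change with TAC was -0.62 ± 0.31 in control and -0.80 ± 0.31 in dKO, with adjusted p of 0.351 and 0.128. Without the pair the change in dKO was -0.51, and dKO sham 1 held the highest value. The genotypes differed by 0.34 ± 0.31 after sham and 0.16 ± 0.31 after TAC (0.09 and 0.20 without the pair).

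In both TAC comparisons, fitted in the same model with a shared estimate of spread, Adra1a, Adra1b, Agtr1a and Rgs2 had negative log2 changes. Ace and Ednrb had positive ones in each genotype. Adrb1, Chrm2 and Ednra had opposite signs in control and dKO. The signs of Adrb1 in control and of Ednra and Ednrb in dKO held in 18 of the 19 alternatives, the others in all 19. The median log2 change over the 9 members was -0.62 for TAC in control and -0.18 for TAC in dKO, beside 0.00 and -0.01 over all 14712 genes. The median dKO-minus-control difference was -0.22 after sham and 0.12 after TAC, beside 0.02 and -0.03 over all genes. Since the members were chosen with these changes known, nothing is read from these signs and medians.

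**Figure D4:**
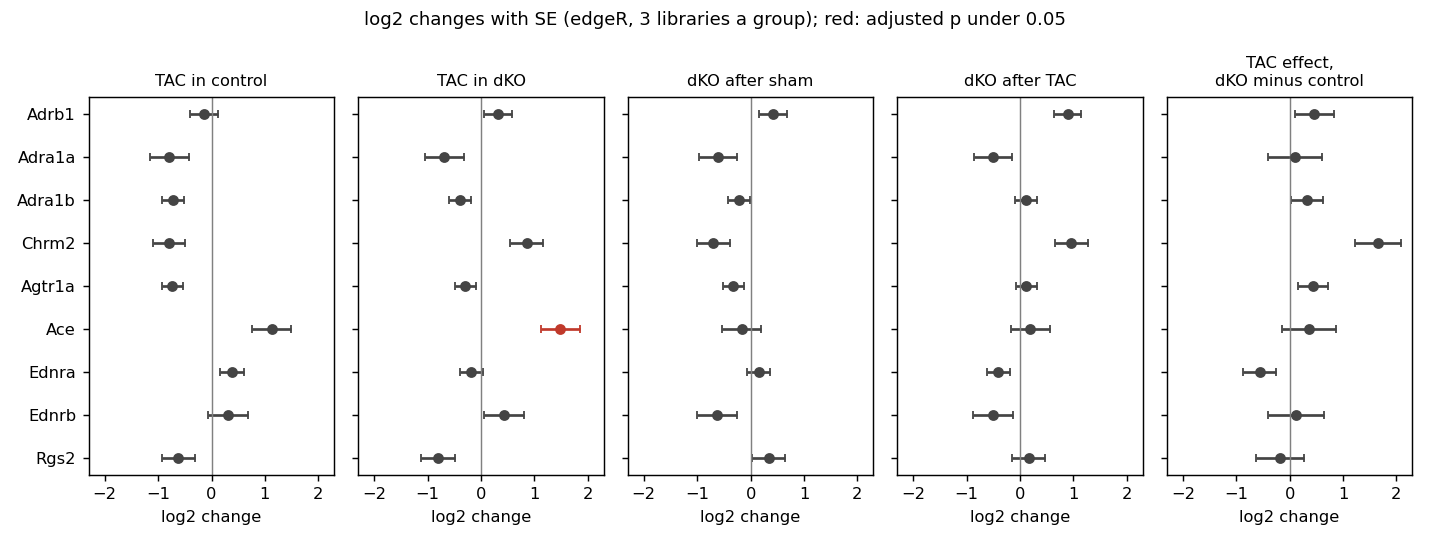
Log2 changes of the 9 genes (x axes) with their SE in the 4 comparisons and in the difference between the TAC effects, from the edgeR fit of 12 libraries. Ace after TAC in dKO, at 1.49, is the only value past the threshold, and Chrm2 lies at -0.80 for TAC in control and at 0.86 for TAC in dKO.

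Among the 118 tested genes that are not members, each call is a test of that gene, and no list was tested as a set. Their lists were written with other results of these data at hand. For TAC in control 1 of 118 was called, higher, beside the same 1.9% of all genes. For TAC in dKO 5 were called higher and 6 lower, beside 4.2% and 3.19%. For dKO after sham 0 were called by edgeR and 2 by DESeq2, beside 10 and 62 of all 14712 genes. There 15 of the 118 had an unadjusted p under 0.05 in edgeR, beside 1361 of all genes. For dKO after TAC 1 was called higher, beside 0.306% of all genes. For the difference between TAC effects 0 were called by edgeR and DESeq2, beside 0 and 11 of all genes. In that contrast 7 had an unadjusted p under 0.05 in edgeR, beside 697 of all genes. The median log2 change with TAC of the 118 was -0.04 in control and -0.03 in dKO, and their median genotype difference was -0.09 after sham and -0.16 after TAC.

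**Figure D5:**
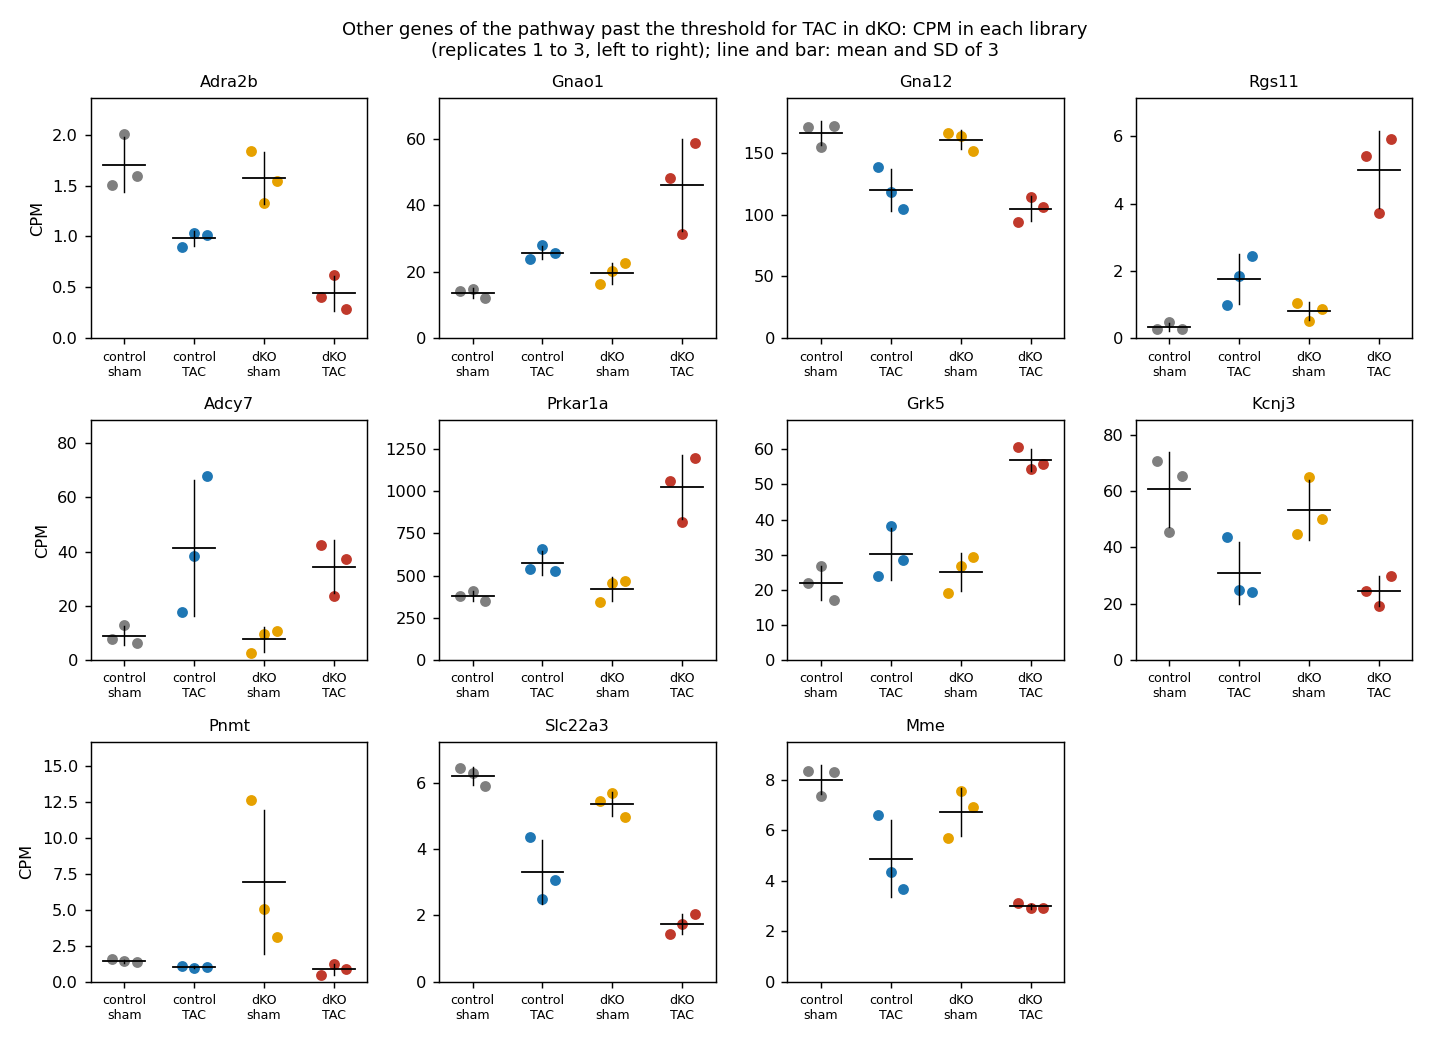
CPM (y axes, from 0) of the 11 other pathway genes called for TAC in dKO, in every library of the 4 groups (x axes); lines and bars are the mean and SD of 3 libraries. In dKO TAC all libraries of Gnao1, Adcy7, Prkar1a, Grk5 and Rgs11 lie above those of dKO sham, and those of Adra2b, Mme, Gna12, Kcnj3, Pnmt and Slc22a3 below.

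G proteins and their regulators included 3 of the 11 genes called for TAC in dKO. Rgs11, a member of the RGS family that acts on Gi and Go, measured 0.274, 0.471 and 0.260 CPM in the control libraries after sham surgery and 0.974, 1.85 and 2.45 after TAC. Those of dKO measured 1.04, 0.504 and 0.866 after sham surgery and 5.41, 3.71 and 5.91 after TAC. It rose with TAC by 2.38 ± 0.44 on the log2 scale in control (adjusted p = 0.0204) and by 2.65 ± 0.41 in dKO (0.00502, and 3.04 without the pair), from 6 to 11 counts per library in control sham. The call in control was lost with only the control groups in the fit, and without control sham 1, control sham 3, control TAC 2 or control TAC 3, with an adjusted p of up to 0.133, and the call in dKO held in all 19 alternatives run. The protein-coding gene Arhgdig, on the opposite strand, overlaps Rgs11 and reached up to 3.52 CPM in a library. Since the strand option of the counting is not known, reads of Rgs11 and Arhgdig may not be separated. The other 13 tested RGS genes were called in no comparison.

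Gnao1, the alpha subunit of Go, stood at 14.2, 14.6 and 11.9 CPM in sham-operated controls, against 23.8, 28.0 and 25.6 in controls with TAC. Values in dKO after sham were 16.2, 20.1 and 22.5 and the TAC values 48.3, 31.4 and 58.8. The groups did not overlap in either genotype, and Gnao1 rose in dKO by 1.24 ± 0.22 (adjusted p = 0.00898, and 1.33 without the pair). In control the change of 0.92 ± 0.22 had an adjusted p of 0.053. Gna12, the alpha subunit of G12, fell in dKO from 152 to 166 CPM after sham to 94.0 to 115 after TAC, with a log2 change of -0.61 ± 0.16 (adjusted p = 0.0367, and -0.66 without the pair). That call was lost in 9 of the 19 alternatives, among them without control sham 1, control sham 3, control TAC 2, dKO sham 2, dKO TAC 1 or dKO TAC 3. The other 17 tested G protein subunits, among them Gnas, Gnaq, Gna11 and Gnai2, were called in no comparison.

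On the cyclic AMP route, Prkar1a, the type I alpha regulatory subunit that holds protein kinase A inactive, measured 380, 406 and 350 CPM in the control libraries after sham surgery and 538, 658 and 530 after TAC. Corresponding dKO libraries measured 340, 457 and 467 after sham surgery and 1059, 820 and 1197 after TAC. It rose in dKO by 1.28 ± 0.21 on the log2 scale (adjusted p = 0.00645, and 1.29 without the pair), and the change of 0.60 ± 0.21 in control had an adjusted p of 0.154. Adcy7, an adenylyl cyclase, measured 17.8, 38.3 and 67.9 CPM in control TAC and 42.4, 23.7 and 37.3 in dKO TAC, against at most 13.0 in the 6 sham libraries. It rose in dKO by 2.18 ± 0.55 (adjusted p = 0.0339, and 1.98 without the pair), a call lost with only the 2 groups compared and without control TAC 2, dKO sham 1, dKO sham 2, dKO TAC 1 or dKO TAC 3 (adjusted p of up to 0.129), and its change of 2.22 ± 0.55 in control had an adjusted p of 0.0599. Like Ace, Adcy7 was highest in control TAC 3, the library with the highest fibroblast and macrophage marker sums (8362 and 754 CPM), and the part of other cells was not tested. The main cardiac cyclases, Adcy5 and Adcy6, were called in no comparison.

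Receptor kinases end the response of an occupied receptor. Grk5 stood at 21.9, 26.7 and 17.1 CPM in sham-operated controls, against 23.8, 38.3 and 28.6 in controls with TAC. Sham-operated dKO libraries gave 19.1, 26.8 and 29.3, and those with TAC 60.5, 54.5 and 55.8. All 3 dKO TAC libraries lay above the other 9. Grk5 rose with TAC in dKO by 1.18 ± 0.23 (adjusted p = 0.012, and 1.05 without the pair), while its change of 0.46 ± 0.23 in control had an adjusted p of 0.327 and the difference between both, 0.72 ± 0.32, one of 0.841. Only leaving out dKO TAC 1 ended the call (adjusted p = 0.0584). Zfp950, on the opposite strand, overlaps Grk5 and averaged 14.7 CPM. The other 6 genes of the list, among them Grk2 and the arrestins Arrb1 and Arrb2, were called in no comparison.

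Of the adrenergic receptors that are not members, Adra2b, an alpha-2 receptor that couples to Gi, fell in dKO from 1.33 to 1.84 CPM after sham to 0.287 to 0.623 after TAC. The log2 change was -1.81 ± 0.34 (adjusted p = 0.0117, and -2.03 without the pair), at 7 to 20 counts per library in dKO TAC, and the call was lost without dKO TAC 1 or dKO TAC 3. Adra1d lay between 0.903 and 3.01 CPM and was not called. Adrb3, Adra2a and Adra2c had at most 8 counts in any library.

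Of the 2 subunits of the potassium channel opened by Chrm2, Kcnj3 fell with TAC in dKO. Kcnj3 measured 70.8, 45.5 and 65.4 CPM in the control libraries after sham surgery and 43.6, 24.9 and 24.3 after TAC. The dKO libraries measured 44.7, 65.2 and 50.2 after sham surgery and 24.6, 19.2 and 30.0 after TAC. Sham and TAC libraries did not overlap in either genotype. The log2 change was -1.12 ± 0.27 in dKO (adjusted p = 0.0296) and -0.97 ± 0.27 in control (0.0917). Without dKO sham 1 and dKO TAC 2 it was -1.08 in dKO and did not pass (adjusted p = 0.0542), nor without dKO sham 2, dKO TAC 1, dKO TAC 2 or dKO TAC 3 alone. Kcnj5 had values of -0.85 in control and -0.22 in dKO and was not called. Kcnj3 is also 1 of the 8 atrial markers, which moved between the same groups. They summed to 148 to 247 CPM in sham controls and 1093 to 1875 in TAC controls, and in dKO to 206 to 483 after sham and 1210 to 2042 after TAC. Nppa, which ventricles also express under load, made up most of the sum in every TAC library. Of the 7 tested, 2 rose in control and 0 fell, and in dKO 1 rose and 2 fell, Kcnj3 among them. Their median log2 change was 2.40 in control and -2.21 in dKO, where the sum rose. Myl7, the atrial light chain, measured 14.8, 5.27 and 1.82 CPM in sham controls and 71.0, 34.8 and 9.14 in TAC controls. In dKO it measured 1.41, 28.5 and 49.2 after sham and 0.47, 4.12 and 0.45 after TAC. Sham and TAC libraries of Myl7 overlapped in both genotypes, unlike those of Kcnj3. The part of atrial tissue in the values of Kcnj3 and Chrm2 was not tested.

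Genes that make and take up catecholamines gave 2 calls for TAC in dKO. Pnmt, which turns noradrenaline into adrenaline, stood at 1.55, 1.41 and 1.34 CPM in sham-operated controls, against 1.09, 0.961 and 1.01 in controls with TAC. Among dKO libraries the sham values were 12.7, 5.04 and 3.12 and the TAC values 0.474, 1.25 and 0.903. It fell with TAC in dKO by 2.97 ± 0.50 on the log2 scale (adjusted p = 0.00687), and by 2.57 without the pair (0.00583). The high group was dKO sham, where the library that stood apart held the highest value and where the difference from control, 2.26 ± 0.48, had an adjusted p of 0.221. Its exons span 1154 nt, the shortest of those 11 genes.

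Slc22a3, a transporter that takes up catecholamines outside nerves, measured 6.44, 6.29 and 5.91 CPM in the control libraries after sham surgery and 4.38, 2.49 and 3.07 after TAC. Those of dKO measured 5.47, 5.68 and 4.97 after sham surgery and 1.45, 1.75 and 2.05 after TAC. It fell with TAC in dKO by 1.62 ± 0.25 (adjusted p = 0.00493, the smallest of the 118 genes, and a change of -1.61 without the pair). In control the change was -0.91 ± 0.24 (0.0786). Th, Slc6a2, Chat and Slc18a3 had at most 4 counts in any library.

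In the endothelin list Mme, which encodes neprilysin, a protease that cleaves endothelin and natriuretic peptides, fell in dKO from 5.71 to 7.55 CPM after sham to 2.92 to 3.11 after TAC. The log2 change was -1.17 ± 0.24 (adjusted p = 0.0143, and -1.26 without the pair), and the call was lost without dKO TAC 1 or dKO TAC 3. In control the change was -0.72 ± 0.23 (0.137). The endothelin genes Edn1 and Edn3 and the converting enzymes Ece1 and Ece2 were called in no comparison, and Edn2 was not tested. The lists of phospholipase C, protein kinase C and inositol trisphosphate receptors (14 genes) and of protein kinase A substrates (10 genes) held 0 called genes in all 5 comparisons by edgeR. For TAC in dKO these lists had 4 and 2 genes at an unadjusted p under 0.05, and DESeq2 called Prkca, Pln and Tnni3 there. Over all 14712 genes 4064 had such a p and DESeq2 called 2376.

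The genes with the profile most like each member over the 12 libraries were sought among the 12010 tested genes averaging 1 CPM or more, by Pearson's r of log2 CPM. The points share libraries, depth and transcript length effects, so r is a description without a test. Ednrb was most like Acly (r = 0.98), Gnb4 (0.98) and Rhoj (0.98), and Ace most like Igf1 (0.98), Prss23 (0.98) and Col5a2 (0.98). Agtr1a was most like Mxi1 (0.97), Hs3st5 (0.96) and D7Ertd443e (0.95), and Chrm2 most like Nek7 (0.97), Ehbp1 (0.95) and Vps41 (0.94). Rgs2 was most like Itm2b (0.96), Cited2 (0.95) and Tspyl2 (0.95), Adra1a most like Asb15 (0.95), Thra (0.95) and Amigo1 (0.95), and Adra1b most like Calr3 (0.93), Rasl2-9 (0.92) and Gabrr2 (0.92). Adrb1 was most like Tspyl5 (0.93), Myot (0.92) and Gramd3 (0.88). Ednra had the lowest values, with Lama5 (0.85) and Adamts3 (0.84) among the closest. Among the members themselves, r ran from -0.85 between Adra1b and Ace to 0.74 between Adra1a and Agtr1a.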

How the data were processed

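Poly(A) RNA of isolated mouse cardiomyocytes was sequenced from 200 ng per library as stranded, single-end reads of 100 nt, per the labels' protocols. Raw counts of reads in 1 deposited table, per gene and library, were the start. Per the submitters' processing notes, Trimmomatic 0.36, STAR 2.5.2b, Subread 1.5.0p3 with featureCounts and the build GRCm38.p5 were used. No source used here gives their settings, strand option or annotation.

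Genes passing edgeR's filterByExpr (14712 of 49568, of which 21344 had no count in any library) were fitted with edgeR 4.0.16 in R 4.3.3. One quasi-likelihood model held all 12 libraries, with TMM scaling, group means, 8 residual degrees of freedom and Benjamini-Hochberg adjustment over all tested genes. An adjusted p under 0.05 was called. CPM are computed from these counts, log2 values used a prior count of 2, and exon lengths are from GENCODE M21. Scripts were tested on simulated data. Members and lists were chosen with earlier results of these data known. Besides the members, the genes described in full are the called genes of each pathway list, up to 3 per list and comparison by smallest p, the 3 genes most like each member, and Mkl1 and Mkl2. Uncalled genes named beside them were chosen after their values were seen.

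No pair of libraries in a group agreed within sampling noise. Alternatives were RLE size factors, DESeq2 1.42.0, no filter on low counts, only the 2 groups compared, a replicate block, removal of the trend with exon length, leaving out dKO sham 1 and dKO TAC 2 together, and leaving out each library. Figures were drawn with matplotlib 3.10.9. Promoters are from RefSeq, GRCm38.p6. Some named items are not reported here, though counts over lists include them.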

Additional observations from a re-analysis of the deposited data

How the results depend on the processing

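Over the 19 alternatives of each comparison (18 for the difference between TAC effects), 0 called values of members and pathway genes changed sign. For TAC in control, the number of members called went from 0 to 3 with DESeq2, 1 with no filter on low counts, 3 without dKO sham 1 and dKO TAC 2 together, 1 with the length trend removed, and 0 to 2 when single libraries were left out. The pathway genes called there went from 1 to 16 with DESeq2, 9 with no filter, 0 with only the 2 groups compared, 6 without that pair, 5 with the length trend removed, and 0 to 13 when single libraries were left out. For TAC in dKO, 1 member was called, and 0 to 2 when single libraries were left out. Without the pair Chrm2 was called in place of Ace. The pathway genes called went from 11 to 19 with DESeq2, 24 without the pair, and 5 to 12 without single libraries. For dKO after sham, pathway genes went from 0 to 2 with DESeq2 and 1 with no filter. For dKO after TAC, members went from 0 to 1 without the pair, and pathway genes from 1 to 6 with DESeq2, 6 without the pair, 3 with the length trend removed, and 0 to 3 without single libraries. The cause of these shifts was not tested.

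Over all genes, calls for TAC in control, TAC in dKO, dKO after sham, dKO after TAC and the difference between TAC effects were 331, 1087, 10, 63 and 0. DESeq2 gave 1005, 2376, 62, 320 and 11, and no filter gave 936, 1545, 53, 129 and 5. Without the pair there were 771, 1580, 11, 508 and 2, and with the length trend removed 512, 1592, 14, 107 and 0. With only the 2 groups compared the first 4 were 2, 647, 5 and 52. Leaving out single libraries gave 2 to 1130, 210 to 1389, 5 to 12, 8 to 252 and 0 to 1. At an unadjusted p under 0.05 the difference between TAC effects held 697 genes.

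The same replicate numbers stand in every group. Correlations of deviations of same-numbered libraries ran from -0.474 to 0.350. The labels do not tie the numbers across groups, and deviations within such small groups cannot show whether the numbers pair the samples. With a replicate block, calls over all genes were 252, 937, 10, 41 and 0, members called 0, 1, 0, 0 and 0, and pathway genes called 1, 10, 0, 1 and 0.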
